A study of Mus musculus with 12 samples.

Results

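The 8 genes of hepatic glucose production and glucose handling, Pck1, G6pc, Fbp1, Pcx, Slc37a4, Slc2a2, Gckr and Pfkl, were followed in the livers of Mettl5 knockout (KO) and wild-type (WT) mice. They were chosen by name for their place in the pathway, and all 8 were found in the normalized table, which holds 10607 genes. METTL5 methylates an adenosine of the small-subunit rRNA, and the study asked whether its loss alters liver translation. Ribosome profiling was done on 3 WT and 3 KO mice from 3 litters, with 1 mouse of each genotype per litter, and from each liver came both an input library (RNA-seq of the lysate, which reads transcript amounts) and an RPF library of fragments that ribosomes had protected from nuclease. KO mice lacked the floxed exon 2 of Mettl5 in the whole body after a cross with a CMV-Cre line, so the deletion was not limited to hepatocytes. The line was made in ES cells that were an F1 hybrid of C57bl/6 and 129S6 and was backcrossed to B6, and WT mice were littermates of KO mice. All 6 livers were frozen and then lysed in buffer with cycloheximide, which arrests elongating ribosomes. Mice of both sexes and of more than one age entered the study as a whole, and which of them gave these 6 livers, the hour of collection and the feeding state are not given in the sources used here.

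The liver makes glucose from lactate, amino acids and glycerol when food is absent. Pyruvate carboxylase (Pcx) turns pyruvate into oxaloacetate, cytosolic phosphoenolpyruvate carboxykinase (Pck1) turns that into phosphoenolpyruvate, fructose-1,6-bisphosphatase (Fbp1) reverses a committed step of glycolysis, and the catalytic subunit of glucose-6-phosphatase (G6pc) releases free glucose. Slc37a4 carries glucose-6-phosphate into the endoplasmic reticulum, where G6pc acts, and Slc2a2 encodes GLUT2, the main glucose carrier of the hepatocyte plasma membrane. Gckr encodes the regulatory protein that binds and inhibits glucokinase, and Pfkl encodes the liver subunit of phosphofructokinase, the glycolytic enzyme that opposes Fbp1. Transcription of Pck1 and G6pc is known to rise with glucagon and glucocorticoids and to fall with insulin.

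Input libraries held 8326325 to 11825643 counted read pairs over all annotated genes. Of these, 18S rRNA took 45.8% in KO mouse 1 and 59.1% to 63.8% in the other mice. Without rRNA genes and Lars2, 2077408 (WT mouse 1) to 4745069 (KO mouse 1) remained. Over the 10607 genes the RPF libraries held 4623826 to 9184242 reads. Within litter 1 lay both the shallowest and the deepest input library over these genes, with 2398804 reads in the WT mouse and 5121304 in the KO mouse. WT livers had 67, 56 and 103 footprint reads of Mettl5 itself, and KO livers had 12, 9 and 10. Its input counts were low, with 21, 18 and 12 in WT and 13, 7 and 5 in KO. The 9 hepatocyte markers were present in every library, and of non-liver markers 6 of 8 pancreatic ones (Ins1, Ins2, Gcg and Sst among them) and 3 of 6 kidney ones (Slc34a1, Umod and Kap) had 0 input counts in all 6 mice. Summed normalized input was 40.1 to 51.8 for the pancreatic list. For the kidney list it was 270 to 448 in WT and 166 to 1222 in KO. In bulk liver, fewer cells of a type and less RNA per cell cannot be told apart.

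Each gene was read from the files by symbol and Ensembl identifier, and all 8 had the same start and end as in GENCODE M21, an annotation of mm10 (GRCm38). Pcx (ENSMUSG00000024892) lies on chromosome 19 from 4510472 to 4621752 on the plus strand, Pck1 (ENSMUSG00000027513) on chromosome 2 from 173153048 to 173159273 (plus), Fbp1 (ENSMUSG00000069805) on chromosome 13 from 62864753 to 62888282 (minus) and G6pc (ENSMUSG00000078650) on chromosome 11 from 101367561 to 101377903 (plus). Slc37a4 (ENSMUSG00000032114) lies on chromosome 9 from 44396852 to 44402968 (plus), Slc2a2 (ENSMUSG00000027690) on chromosome 3 from 28697903 to 28731359 (plus), Gckr (ENSMUSG00000059434) on chromosome 5 from 31297443 to 31327314 (plus) and Pfkl (ENSMUSG00000020277) on chromosome 10 from 77986947 to 78010083 (minus). Ribosomes begin translation at the start codon, so its surroundings are shown for each gene as 12 bases before and 18 bases from the start of the coding sequence of a principal transcript, with the ATG in capitals, 5′ to 3′ on the gene's strand.
Pcx: acaacactaatgATGctgaagttccaaaca
Pck1: accattgcaattATGcctcctcagctgcat
Fbp1: cagaccccagcaATGgcgaaccatgcgccc
G6pc: aagggaggaaggATGgaggaaggaatgaac
Slc37a4: gctttttctaccATGgcagcccaaggctac
Slc2a2: cacacacacacaATGtcagaagacaagatc
Gckr: cagtgtgggaccATGccaagcaccaagcgg
Pfkl: tccgctgccgccATGgctaccgtggacctg
The base 3 before the ATG was a purine in 8 of 8 genes, as in 86.9% of 8658 genes tested with an annotated ATG and enough sequence before it. The base after the ATG was G in Fbp1, G6pc, Slc37a4 and Pfkl, and it was G in 53.3% of those genes. GC content of the coding sequence ran from 49.9% in Slc2a2 to 57.8% in Pcx, around a median of 52.6% over genes tested.

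Levels between genes were compared per length, as normalized reads per kb of exon for input and per kb of coding sequence for RPF. In WT input the order ran from Pck1 (2888 ± 1153 per kb, SD, n = 3) through Fbp1 (1231 ± 97.6), G6pc (1058 ± 492), Pcx (350 ± 14.8), Slc2a2 (206 ± 33.1), Slc37a4 (143 ± 45.9) and Gckr (72.7 ± 10.0) to Pfkl (24.2 ± 3.93). Fbp1 and G6pc overlapped among WT mice, and the other neighbours in this order did not. Pck1 thus stood above 99.5% of genes tested in input per kb, whereas Pfkl stood above 60.1%.

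In WT footprints per kb of coding sequence, Pck1 led again (13746 ± 7440), followed by Fbp1 (9164 ± 1616), G6pc (3071 ± 1402), Slc2a2 (1354 ± 96.6), Pcx (822 ± 83.6), Slc37a4 (473 ± 120), Gckr (331 ± 53.0) and Pfkl (84.6 ± 22.3). Pck1 overlapped Fbp1 here and Slc37a4 overlapped Gckr, and GLUT2 moved ahead of pyruvate carboxylase. The log2 ratio of RPF per kb to input per kb was highest for Fbp1 (2.88 ± 0.15, SD, n = 3) and Slc2a2 (2.73 ± 0.15) and lowest for Pcx (1.23 ± 0.12), with a median of 1.98 over the 8 genes and 1.63 over 8986 genes. That order leans on annotated lengths, because Slc2a2 has 5755 bases of exon for 1569 bases of coding sequence. With exon length used for both assays the Slc2a2 ratio was 0.85 and the Pcx ratio 0.80.

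The first comparison asked whether transcripts of these genes differed between KO and WT livers. By edgeR's quasi-likelihood method with Benjamini-Hochberg adjustment, 0 of the 8 reached an adjusted p under 0.05, where 0% of 10057 genes did, and none of the 8 had an unadjusted p under 0.05, against 348 of 10057 genes. KO and WT values overlapped for all 8, while 4.23% of genes had all KO mice above all WT mice and 4.34% had all KO mice below. Mettl5 itself did not pass in input (log2 fold change −1.59, SE 0.46, edgeR adjusted p 0.999). Of the 8 genes, G6pc had the largest difference. Its normalized input reads were 2097, 1663 and 3903 in WT mice of litters 1, 2 and 3 and 4294, 2618 and 4237 in their KO littermates. The KO mouse was the higher one in 3 of 3 litters, but WT mouse 3 lay within the KO range. The log2 fold change was 0.57 (SE 0.40, edgeR adjusted p 0.999), and it was 0.33 without WT mouse 2 and 1.01 without WT mouse 3. In a paired fit, with litter as block, it was 0.63 (SE 0.18, edgeR adjusted p 0.755).

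Pck1 input was lowest in both mice of litter 1. It read 6101, 9617 and 13992 in WT and 7231, 13572 and 13336 in KO, and its log2 fold change was 0.22 (SE 0.39). Leaving out WT mouse 1 turned it to −0.03. Other differences were smaller than 0.25 on the log2 scale. They were −0.10 for Pcx (SE 0.14), −0.01 for Fbp1 (SE 0.15), 0.03 for Slc37a4 (SE 0.34), −0.17 for Slc2a2 (SE 0.16), 0.18 for Gckr (SE 0.16) and 0.24 for Pfkl (SE 0.18). The median over the 8 genes was 0.11, beside −0.00037 over all genes tested.

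**Figure D1:**
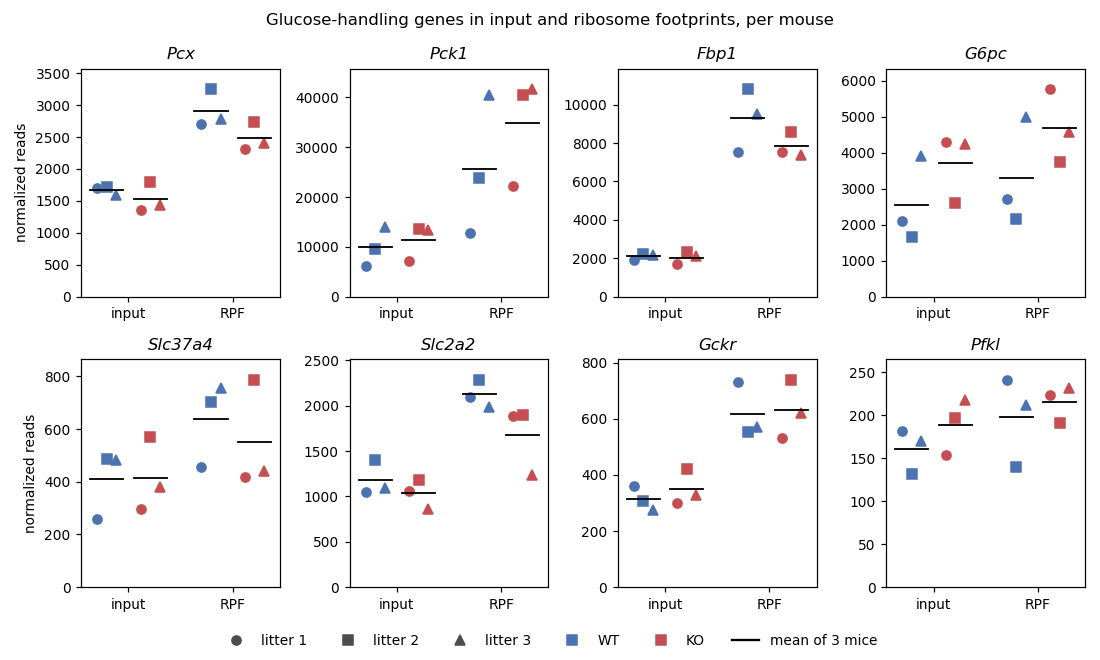
Normalized reads of the 8 genes in input and RPF (vertical axes from 0, one scale per gene), with a point for each mouse, its shape giving the litter and its colour the genotype, and a line at the mean of 3 mice. In Slc2a2 RPF the KO mice (1234 to 1901) sit below the WT mice (1987 to 2287), and in Pck1 both litter 1 mice sit lowest in each assay.

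Footprints were compared next, as the amount of each transcript held by ribosomes. Of the 8 genes, 0 passed an adjusted p of 0.05 in limma, where 0.489% of 8994 genes did, and 1 had an unadjusted p under 0.05, where 13.4% of genes did. That gene was Slc2a2. Its RPF reads were 2100, 2287 and 1987 in WT and 1886, 1901 and 1234 in KO, all on the normalized scale. Every KO mouse was below every WT mouse, a pattern shared by 12.9% of genes, and no gene of the 8 had all KO mice above all WT mice, as 6.97% of genes had. The GLUT2 footprint difference was −0.37 (log2, SE 0.17, 95% interval −0.73 to −0.01, limma adjusted p 0.363). Much of it lay in KO mouse 3, without which it was −0.16. With litter as block the SE of the Slc2a2 difference was 0.13 and its limma adjusted p 0.133.

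Pck1 footprints spanned a 3.25-fold range over the 6 mice. Normalized RPF reads were 12796 in WT and 22215 in KO mice of litter 1, 23784 and 40519 in litter 2, and 40372 and 41597 in litter 3. The KO mouse was higher in 3 of 3 litters, by 0.80, 0.77 and 0.04 on the log2 scale, yet the groups overlapped. The log2 fold change was 0.54 (SE 0.49, 95% interval −0.59 to 1.66, limma adjusted p 0.702). In the paired fit with litter as block its SE was 0.15 and its adjusted p 0.0679, in a fit that called 236 genes instead of 44. Without WT mouse 1 the Pck1 difference was 0.11 and without WT mouse 3 it was 0.94.

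G6pc footprints were 2716, 2159 and 4993 in WT and 5769, 3743 and 4591 in KO. Within litters the differences were 1.09, 0.79 and −0.12, so the KO mouse of litter 3 lay slightly below its WT littermate. The fit gave 0.59 (SE 0.39, 95% interval −0.30 to 1.47, limma adjusted p 0.566), with 0.33 without WT mouse 2 and 0.93 without WT mouse 3. Pcx footprints were lower in the KO mouse of every litter, by 0.22 on average (within-litter differences of −0.22, −0.24 and −0.21). Those of Fbp1 were lower by 0.23 on average, with almost no difference in litter 1 (−0.0030, −0.33 and −0.37). Neither passed (limma adjusted p 0.490 and 0.527), and both groups of each overlapped. Over all genes tested, 4853 of 8994 were lower in KO RPF. How many genes kept 1 direction in all 3 litters was not counted.

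Slc37a4, the carrier that feeds G6pc, had 455, 704 and 757 normalized RPF reads in WT and 420, 787 and 441 in KO, a difference of −0.24 (SE 0.35). On the glycolytic side Gckr differed by 0.03 (SE 0.17) and Pfkl by 0.16 (SE 0.20). The 8 genes divided evenly, with 4 higher and 4 lower in KO and a median of −0.10, where the median of all genes tested was −0.03. Intervals of the unpaired fit reached differences in footprints of up to 0.38 for Gckr, 0.57 for Pfkl and 1.66 for Pck1. They carry the spread between litters. With litter as block the SEs were 0.17 for Gckr, 0.17 for Pfkl and 0.15 for Pck1.

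**Figure D2:**
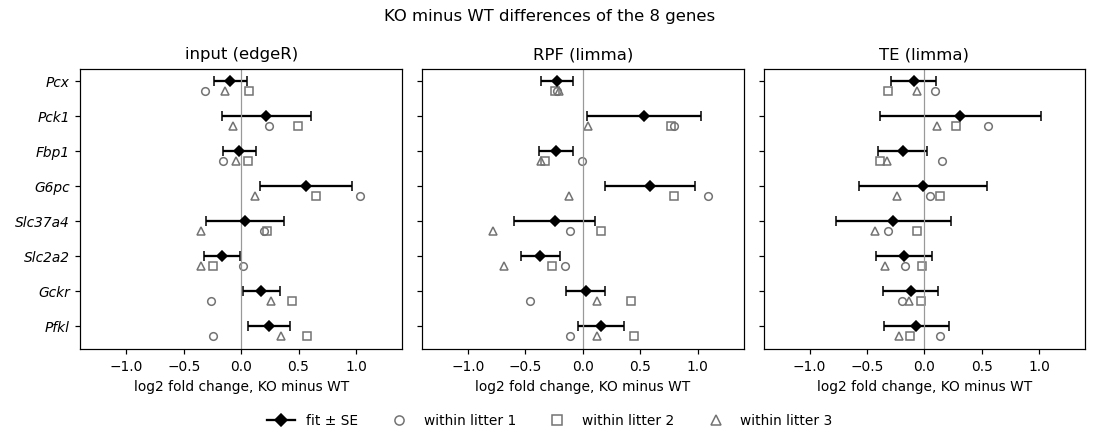
KO minus WT differences of the 8 genes on the log2 scale in input, RPF and TE (horizontal axes), where diamonds are the fitted values with bars of 1 SE and open symbols are the differences within each litter. The Pck1 RPF symbols lie at 0.04 to 0.80 on the positive side, and the Pcx RPF symbols lie together at −0.24 to −0.21.

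Translation efficiency (TE) is RPF over input for a gene in a mouse. It changed for 0 of the 8 genes in limma's interaction test (adjusted p of 0.998 or more) and for 0% of all 8994 genes, of which 188 were higher and 235 lower at an unadjusted p under 0.05. None of the 8 genes was among those. The TE of Pck1 was 2.10, 2.47 and 2.89 in WT and 3.07, 2.99 and 3.12 in KO. All KO mice were above all WT mice, as in 6.08% of genes, and KO mice varied little (3.06 ± 0.068 against 2.49 ± 0.39 in WT, SD, n = 3). The log2 difference was 0.31 (SE 0.70, limma adjusted p 0.998), where this SE carries the spread of input and RPF between mice. Taking TE per mouse, which removes the spread shared by both libraries, left it short of the threshold (limma adjusted p 0.776).

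The TE of Slc37a4 was 1.76, 1.44 and 1.56 in WT and 1.41, 1.38 and 1.16 in KO, so that all KO mice were below all WT mice, as in 7.34% of genes. Its difference was −0.27 (SE 0.50, limma adjusted p 0.998). For G6pc the TE of 1.30, 1.30 and 1.28 in WT and 1.34, 1.43 and 1.08 in KO gave −0.02 (SE 0.56). Input and RPF of G6pc thus moved by similar amounts from mouse to mouse, with a 2.58-fold range in input, a 2.67-fold range in RPF and a 1.32-fold range in TE. Fbp1 had the highest TE of the 8 on the read scale, at 4.41 ± 0.46 in WT and 3.88 ± 0.46 in KO (SD, n = 3).

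**Figure D3:**
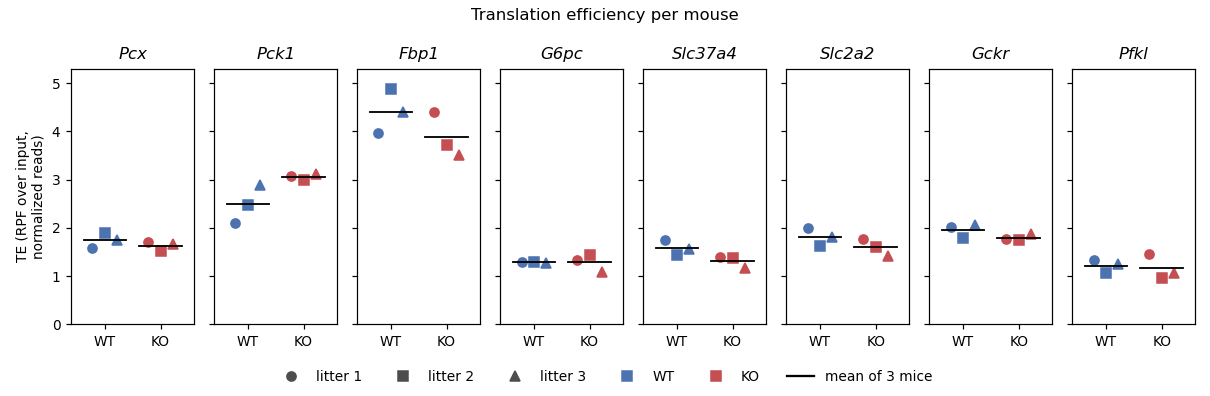
TE (RPF over input in normalized reads, vertical axis from 0) of the 8 genes in each mouse, with the shape giving the litter, the colour the genotype and a line at the mean of 3 mice. The KO values of Pck1 lie at 2.99 to 3.12, above the WT values of 2.10 to 2.89, and those of Slc37a4 lie below its WT values.

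How far each gene varied between mice of one genotype was measured as the SD of log2(normalized reads + 1), pooled over genotypes. Pck1 varied most, with an SD of 0.56 in input and 0.69 in RPF, which was larger than in 89.9% and 96.7% of genes tested. G6pc (0.53 and 0.49) and Slc37a4 (0.50 and 0.45) came next. Pcx varied least (0.16 and 0.14), and Fbp1 had 0.18 and 0.20, beside medians of 0.26 and 0.25 over all genes. The 3 genes with the widest spread were thus an enzyme near the start of the path from oxaloacetate to glucose, the enzyme at its end, and the carrier that supplies that enzyme.

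**Figure D4:**
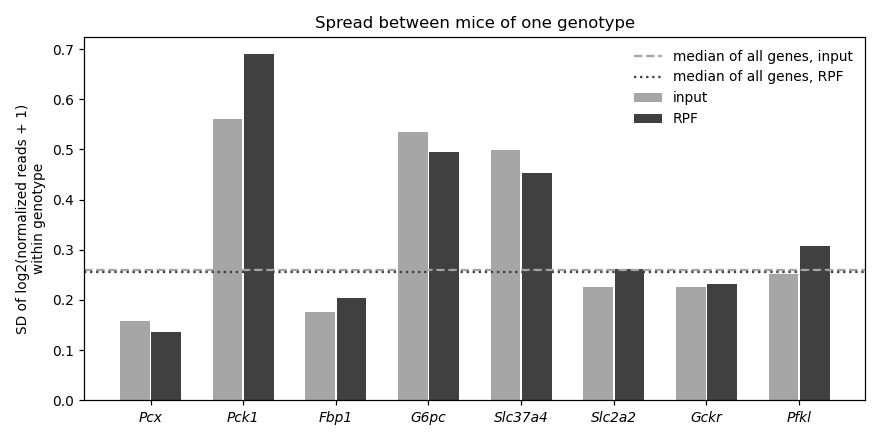
Spread between mice of one genotype for the 8 genes, as the SD of log2(normalized reads + 1) in input (light bars) and RPF (dark bars), with lines at the medians over all genes tested. Bars of Pck1, G6pc and Slc37a4 reach 0.45 to 0.69 and those of Pcx 0.14 to 0.16.

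Because Pck1 differed so much between mice, litters were compared in a test chosen after the data were seen, an F test of the litter terms in the paired fit. In RPF, Pck1 was the only one of the 8 that differed between litters (F = 25.3, limma adjusted p 0.00620), where 1.03% of genes did. Mean normalized RPF reads of its 2 mice were 17505 in litter 1, 32151 in litter 2 and 40984 in litter 3. In input none of the 8 passed, where 0.278% of genes did, and the smallest adjusted p-values in edgeR were 0.0994 for Pck1, 0.119 for Slc37a4 and 0.237 for G6pc. Without WT mouse 1 the Pck1 RPF result no longer passed (limma adjusted p 0.107), and without KO mouse 3 G6pc passed as well (0.0424).

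Litter 1 was the low one for Pck1, by 0.89 in input and 1.08 in RPF on the log2 scale against the mean of the other 2 litters. Both litter 1 mice were below the other 4 mice for Pck1, Fbp1 and Slc37a4 in input, a pattern found in 8.73% of genes, and for Pck1 alone in RPF, where 11.9% of genes had it. Slc37a4 had 259 and 298 normalized input reads in litter 1 and 379 to 572 in the other mice. G6pc did not share this order, since its lowest values were in litter 2, with 1663 in WT and 2618 in KO in input. Of 18 other gluconeogenic enzymes and carriers tested, 16 were lower in litter 1 input with a median of −0.23, beside 52.0% of all genes with a median of −0.01, and in RPF 9 of 18 were lower.

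Markers of other cells moved with litter 1 too. The 6 Kupffer cell and leukocyte markers tested, of 10 listed, were all higher there, with a median of 0.60 in input and 0.64 in RPF. Summed normalized input of all 10 listed was 1343 to 1541 in litter 1 and 944 to 1155 in the other mice, and none of the 10 was at 0. Endothelial markers were higher in litter 1 RPF in 7 of 8 cases (median 0.39), with sums of 2789 to 2835 against 2009 to 2250, and in input 4 of 8 were. Hepatocyte marker sums in RPF were 996657 to 1193190 in litter 1 and 713309 to 917842 in the other mice. In input the hepatocyte sums overlapped, at 370311 to 446918 in litter 1 and 348544 to 414561 in the other mice. Lower values in litter 1 were seen in 9 of 11 periportal markers in input (median −0.28) and 8 in RPF (median −0.12). Of 12 pericentral markers, 9 were lower in input (median −0.08) and 10 in RPF (median −0.08). Over all genes tested 52.0% were lower in input and 50.3% in RPF. Sums of both zones overlapped between litter 1 and the other mice in both assays. In RPF they were 58257 to 78719 against 70159 to 79103 for periportal markers. For pericentral markers they were 71462 to 71876 against 65358 to 90127. The part of these cells in the Pck1 difference was not tested.

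The genes whose values were most like those of Pck1 were sought as the smallest root mean square (RMS) difference over the 12 libraries, on the log2 scale with each gene centred within assay. They were Tat (tyrosine aminotransferase, RMS 0.18), Klf15 (a zinc finger transcription factor, RMS 0.20) and Hes6 (a basic helix-loop-helix transcription factor, RMS 0.22), beside a median of 0.61 over all genes and an RMS of 0.55 for Pck1 about its own mean. Tat had 8264 and 13823 normalized RPF reads in WT and KO mice of litter 1, 12236 and 27143 in litter 2, and 22197 and 19605 in litter 3. Klf15 had 132 and 190 in litter 1, 269 and 494 in litter 2, and 342 and 412 in litter 3. Slc37a4 was the closest of the other 7, at 0.43. For G6pc the nearest genes were Rfx5 (a transcription factor of MHC class II genes, RMS 0.22), Slc25a25 (a mitochondrial ATP-Mg/phosphate carrier, 0.24) and Poglut2 (a protein O-glucosyltransferase, 0.24), beside a median of 0.59. Rfx5 and Poglut2 rested on few reads, 8 to 47 and 7 to 47 per input library, whereas Slc25a25 had 549 to 2801.

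**Figure D5:**
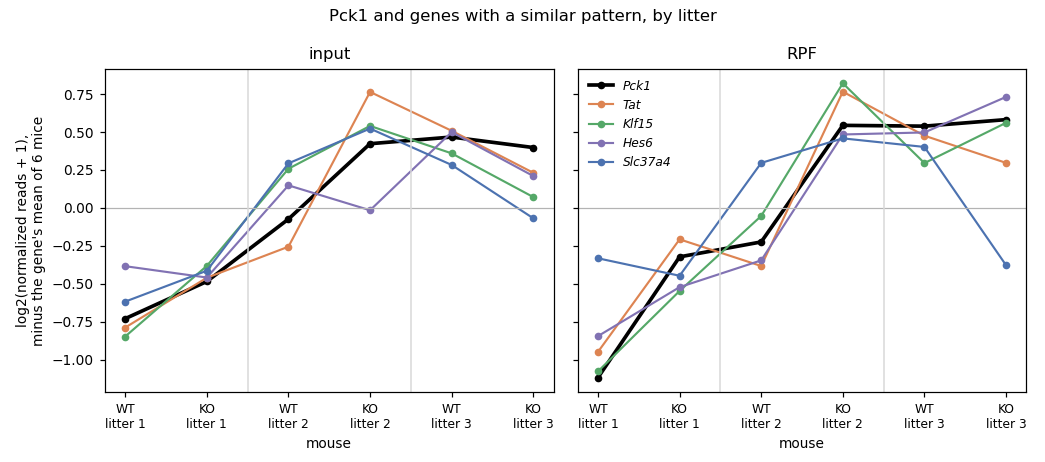
Pck1, the 3 genes nearest to it and Slc37a4 by mouse (horizontal axis, litters in turn), as log2(normalized reads + 1) minus the gene's mean over the 6 mice of the assay. The 5 genes lie below their means in both litter 1 mice, in input and in RPF.

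Pck1 and Slc37a4 had both litter 1 mice lowest in input and a wide spread, and promoter letters they share are shown. The pair was picked from these values. Fbp1 shared the litter 1 order and G6pc the wide spread, and neither had the match described here. Whether the match bears on the litter values was not tested. The cAMP response element was searched only as the exact letters TGACGT, on both strands in the 250 bases before each RefSeq start (GRCm38.p6). Other forms of it were not searched, so a window without the match may still hold one. The match was found in 3 of 11 windows of the 8 genes. They were 1 of Pck1 and 2 overlapping ones of Slc37a4 that hold the same site. Of 32851 windows of all genes, 6.47% had it. The Pck1 stretch below is chr2:173152823-173153047 on the plus strand, and the Slc37a4 stretch is chr9:44396873-44396902 on the plus strand, with the match in capitals.
Pck1: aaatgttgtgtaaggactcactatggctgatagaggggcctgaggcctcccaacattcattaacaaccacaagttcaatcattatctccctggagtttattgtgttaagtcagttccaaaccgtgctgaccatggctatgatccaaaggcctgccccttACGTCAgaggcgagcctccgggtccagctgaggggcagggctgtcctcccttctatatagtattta
Slc37a4: tgacaggcaggaTGACGTctccatcccagg
The match begins 91 bases before the RefSeq start in Pck1. In Slc37a4 it begins 61 bases before the first RefSeq start, which is position −214 from the second, and it lies inside the gene as GENCODE draws it, whose start is further upstream. The TATA box letters TATAAA were present in windows of G6pc and Slc37a4 and in 12.4% of all windows. The forkhead letters GTAAACA were in 0 of the 11 windows and in 3.17% of all. CCAAT box letters were in 5 of the 11, those of Fbp1, G6pc, Gckr, Pcx and Slc2a2, and in 33.8% of all. A match is a description of letters and shows no binding.

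Other genes of glucose metabolism were followed in lists by role. Among hormone receptors, signalling proteins and transcription factors that control glucose output, 1 of 30 rose in RPF and 0 fell, with a median of 0.18, where 15 of all 8994 genes rose and 29 fell with a median of −0.03. It was Irs1, an adaptor that passes the insulin signal from its receptor. Its normalized RPF reads were 68.8, 58.0 and 81.5 in WT and 111, 138 and 108 in KO, 0.77 higher on the log2 scale (SE 0.17, limma adjusted p 0.0490). All KO mice were above all WT mice, whereas its input of 244, 196 and 233 in WT and 238, 250 and 213 in KO overlapped. The adjusted p passed narrowly and was lost without any 1 of 5 mice, WT mice 1, 2 and 3 and KO mice 2 and 3, with 0.0827 to 0.245, with the trend with coding-sequence GC content removed (0.60, limma adjusted p 0.188) or that and length removed with litter as block (0.189), with RPF columns alone (0.123), with a pseudocount of 5 (0.0514) and with no filter (0.0565). Its TE was 0.29 to 0.35 in WT and 0.47 to 0.56 in KO, which did not pass (0.71, limma adjusted p 0.998).

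No other listed gene passed in the unpaired fits of the 3 comparisons. Sord, which oxidizes sorbitol to fructose, came nearest in RPF, with 2390, 2865 and 2731 normalized reads in WT and 1757, 1488 and 951 in KO, a log2 difference of −0.97 (SE 0.21, limma adjusted p 0.0517). All KO mice were below all WT mice. It passed in limma with litter as block (0.0428), with a mean of at least 50 (0.0476) and without KO mouse 1 (0.0224), and in edgeR on whole reads (0.0402). It did not pass with litter as block and GC and length trends removed (0.0696), nor without any other single mouse. In input its adjusted p was 0.912 in edgeR and 0.00219 with no count filter. Gk, the kinase that brings glycerol into gluconeogenesis, had 945, 971 and 948 in WT and 743, 744 and 584 in KO (−0.48, SE 0.14, limma adjusted p 0.123). Fmo5, a flavin-containing monooxygenase listed among fasting-induced genes, differed by −0.60 (SE 0.16, limma adjusted p 0.0878) and passed with litter as block (0.0310), but not with GC and length trends also removed (0.128).

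By list, the RPF median was −0.03 for the other gluconeogenic enzymes and carriers (7 higher and 11 lower of 18), −0.09 for glycolysis and pyruvate use (7 and 11 of 18), −0.0042 for glycogen (8 and 9 of 17) and −0.12 for fructose, galactose and polyol genes (4 and 5 of 9). It was 0.33 for fasting-induced genes outside the glucose pathway (10 and 4 of 14) and 0.02 for feeding-induced lipogenic genes (7 and 4 of 11), beside −0.03 over all genes. In glycolysis the smallest p-value belonged to Pfkfb3, the enzyme that makes the phosphofructokinase activator fructose-2,6-bisphosphate. Its RPF reads were 101, 375 and 280 in WT and 65.3, 116 and 64.0 in KO (−1.47, SE 0.65, limma adjusted p 0.374), and WT mouse 1 stood apart from the other WT mice, without which the difference was −2.03 (adjusted p 0.0299). Ugp2, which makes the UDP-glucose for glycogen, differed by −0.49 (SE 0.19, adjusted p 0.268) in limma, and Me1, malic enzyme of lipogenesis, by −0.48 (SE 0.26, adjusted p 0.441).

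In input the genes with the smallest p-values of their lists were Got1 (0.42), Pfkfb3 (−1.72), Phkb (0.31), Sord (−0.72), Irs2 (1.16), Vnn1 (0.80) and Acacb (0.27), as log2 fold changes with edgeR adjusted p-values of 0.912 or more. Irs2, the other main insulin receptor substrate of liver, had 99.1, 94.0 and 207 normalized reads in WT and 404, 161 and 318 in KO, with the KO mouse higher in 3 of 3 litters. In TE they were Gk (−0.43), Hk1 (0.97), Phkb (−0.47), Galt (0.34), Irs1 (0.71), Acot1 (0.78) and Elovl6 (−0.67), each with a limma adjusted p of 0.998. Between genotypes, summed markers of stellate cells and fibroblasts did not overlap in either assay. Periportal sums were apart in RPF alone and erythroid sums in input alone. Sums of the other marker lists overlapped in both assays. Of 7 stellate and fibroblast markers tested, of 8 listed, 4 were higher in KO RPF at an unadjusted limma p under 0.05. Over all genes 486 of 8994 were, and 0 of the 7 passed adjustment. Their summed normalized RPF was 1925 to 2114 in WT and 2758 to 2968 in KO, with none at 0. In input 4 of 7 were also higher at an unadjusted edgeR p under 0.05, against 198 of 10057 genes, and 0 passed adjustment. Summed normalized input of all 8 listed was 1011 to 1257 in WT and 1300 to 1419 in KO. Periportal hepatocyte markers, none at 0, summed to 75399 to 79103 in WT RPF and 58257 to 75165 in KO RPF. In RPF 8 of 11 were lower (median −0.17, 0 passed), beside 4853 of all 8994 genes. In input 5 of 11 were lower, and sums overlapped, at 37615 to 39022 in WT and 28040 to 44289 in KO. All 7 erythroid markers listed summed to 627 to 817 in WT input and 541 to 607 in KO input. Of 5 tested in input, 5 were lower (median −0.36, 0 passed), beside 5029 of 10057 genes. In RPF 3 of 3 tested were lower (median −0.86). Sums of the 4 found in RPF overlapped, at 965 to 1673 in WT and 784 to 1213 in KO. The part of these cells in the Slc2a2 and Irs1 differences was not tested.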

How the data were processed

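Livers of 3 WT and 3 KO mice were profiled, with 1 input and 1 RPF library each. The authors trimmed reads with BBDuk, aligned input read pairs to mm10 with STAR 2.7.3a, kept unique alignments and obtained strand-aware exon counts with featureCounts (version 1.6.0 per the submitters' processing notes), deposited as whole read pairs per gene. For RPF they took read 1, removed rRNA and mapped in RiboToolkit. The authors' deposited TE table gives signal for 12 libraries, which is reads over 1 factor per library, with no gene length despite its name. In these 12 columns 100% of values were whole multiples of 1 read. The log2 fold changes and p-values that the authors deposited in it come from their own TE comparison and were not used. How the factors and the gene filter of that table were set is not given in the sources used here.

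Input counts were tested with edgeR 4.0.16 (TMM, filterByExpr, robust quasi-likelihood) in R 4.3.3. For RPF and TE, limma 3.58.1 (trend, robust) was run on log2(signal + 1) of the 8994 genes that averaged at least 10 in both assays, so changes of low genes are understated. The model had 4 group means and treated all 12 libraries as independent, though the input and RPF of 1 mouse come from 1 liver. With RPF columns alone, 23 genes were called in RPF in place of 44. SEs of edgeR are the absolute log2 fold change over the square root of F. Tests were two-sided with Benjamini-Hochberg adjustment over all genes tested, at 0.05. The design had assumed a table of normalized values, so no count model was the main test for RPF and TE. A count model on the recovered whole reads was run beside it. Each choice was varied in turn, with DESeq2 1.42.0, RLE scaling, pseudocounts of 0.1 and 5, looser and stricter filters, columns centred, library sizes without rRNA genes and Lars2, litter as block, TE per mouse, removal of trends with CDS GC content and length, edgeR on whole reads, RPF alone, an adjusted p of 0.1 and each mouse left out. The litter F test was added after the data were seen. Fits were tested on simulated data with known changes.

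The labels name littermates, so mice are paired. Deviations from group means correlated between littermates of litters 1, 2 and 3 by 0.0816, 0.127 and 0.100 over input genes, and by 0.242, 0.144 and 0.195 over RPF genes. Between WT and KO mice of unlike litters they correlated by −0.117 to 0.0169 in input and by −0.239 to 0.0813 in RPF. The study states no litter term, so unpaired fits come first. No 2 replicates agreed within sampling noise (5.81 to 39.6 in chi-square per degree of freedom). Members and lists were chosen with earlier results of these data known. Named were the 8 members, in each comparison the gene of each list with the smallest p-value and every gene that passed, and the 3 genes nearest to Pck1 and to G6pc. No column was left without a sample. Promoter windows are from RefSeq (GRCm38.p6). Coding sequences for lengths, GC content and all-gene shares are the longest of each gene in GENCODE M21. The printed start codon surroundings are from principal transcripts. Their coding sequence was shorter than the longest for Gckr (1761 against 1869 bases), Pcx (3534 against 3537) and Slc37a4 (1287 against 1350).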

Additional observations from a re-analysis of the deposited data

How the results depend on the processing

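In 738 alternative values of 52 results, 703 stayed in direction and on one side of the threshold, or close in size. None of the 8 genes passed in input, RPF or TE under any alternative run, the paired fit with the replicate block included, in which the smallest adjusted p was 0.0679 (limma, Pck1 RPF, main value 0.702). That block moved the number of genes called in RPF from 44 to 236 and changed no call among the 8. Fold changes near 0 turned sign. With the CDS GC trend removed, the TE difference of G6pc was 0.025 in place of −0.02, and with litter as block and GC and length trends removed it was 0.037, while the Pfkl RPF difference was −0.0021 in place of 0.16. Leaving out each mouse in turn gave −0.11 to 0.094 for Fbp1 input, −0.033 to 0.55 for Pck1 input, −0.26 to 0.23 for Slc37a4 input, −0.095 to 0.15 for Gckr RPF, −0.075 to 0.32 for Pfkl RPF, −0.24 to 0.048 for Pfkl TE and −0.10 to 0.10 for G6pc TE. The number of the 8 genes that differed between litters in RPF was 0 to 2 across those fits and 1 otherwise. The median log2 ratio of RPF to input per length fell from 1.98 to 0.83 when exon length served for both, which follows from coding sequences being shorter than exons.

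Gckr and Pfkl rested on 84 to 457 input reads per library, and Slc37a4 on 141 to 453.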
